A study of Mus musculus with 48 samples.

Results

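The cytosolic ribosomal proteins are described here across liver libraries of mice given dichloroacetic acid (DCA), a drinking-water disinfection byproduct. Members were all rows whose gene symbol starts with Rpl or Rps and a digit, or with Rplp and a digit, without the Rps6k kinases. The frozen (FROZ) table held 71 members among 11275 rows and the formalin-fixed, paraffin-embedded (FFPE) table held 67 among 6673 rows. The 67 were also listed in FROZ, within 6591 rows shared by both tables.

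Male B6C3F1 mice, 4 weeks old, drank water holding DCA for 6 days. A concentration of 1.0 g/L gave a dose of 198 mg/kg-d, 2.0 g/L gave 313 mg/kg-d and 3.5 g/L gave 427 mg/kg-d. Each dose group held 6 mice, and each mouse gave 1 FROZ library from RNA of mixed liver lobes and 1 FFPE library from a lysate of the left lateral and right medial lobes, 48 libraries from 24 animals. The controls received water without DCA (0 mg/kg-d). Per the paper, the tissue had been archived for decades, as frozen pieces kept cold or as blocks kept at ambient temperature. The frozen RNA had been isolated earlier, and the blocks were sectioned later. Lobes, storage and RNA preparation therefore differ between FROZ and FFPE along with fixation, and these cannot be told apart. TempO-Seq was used, in which pairs of detector oligos ligate on a target RNA and are counted by sequencing, so a level reflects both the transcript and its probe. Values are log2(CPM + 1), where CPM is a gene's count scaled to the library total of listed genes.

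The ribosome has a small subunit, which reads the messenger RNA and holds the Rps proteins, and a large subunit, which forms peptide bonds and holds the Rpl proteins. Rplp0, Rplp1 and Rplp2 form the stalk of the large subunit, which recruits translation factors. Ribosomal protein genes are highly expressed in liver, their messenger RNAs typically start with a pyrimidine tract through which the mTOR pathway sets their translation, and their genome-wide processed copies make reads hard to assign to a single locus.

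By symbol, 21 FROZ members were small-subunit proteins, 34 large-subunit proteins and 3 stalk proteins. A further 4 were paralogs (Rps27l, Rpl36al, Rpl3l and Rpl7l1), 2 retrogenes (Rps27rt and Rpl37rt) and 6 pseudogene symbols. The remaining member, Rps19bp1, matches the symbol rule but encodes a nucleolar binding partner of RPS19 and not a ribosomal protein. RefSeq lists 90 protein-coding symbols of this pattern. Rps6 and Rps19 were not analysed here, while Rps6-ps4 and Rps19-ps3 were rows. To show how far a symbol can be read as a locus, member transcripts (GENCODE vM21) were cut into overlapping windows of 50 bases. Each window was matched exactly to transcripts of other genes. Probe positions were not used, so the shares describe whole transcripts and not the stretch each probe reads. At least 1 window was shared for 68 of the 71 members, with a median of 23.5% of windows shared. Rps6-ps4 shared 100% of its windows with Rps6, and Rpl14-ps1 shared 78.3% with Rpl14, so these rows may hold reads of the parent genes. Levels of different members are therefore not compared, and each result is a difference within a row.

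The Rps27 family shows what the rows can and cannot separate. The coding sequences are given 5′ to 3′ from GENCODE vM21 on GRCm38, the build named mm10 in the submitters' processing notes. Capitals in Rps27l mark bases that differ from Rps27 at the same position counted from the start codon. Rps27 lies on chr3:90212725-90213615 (coding span, minus strand), Rps27rt on chr9:114982453-114982707 (minus strand) and Rps27l on chr9:66946175-66949357 (plus strand).
Rps27: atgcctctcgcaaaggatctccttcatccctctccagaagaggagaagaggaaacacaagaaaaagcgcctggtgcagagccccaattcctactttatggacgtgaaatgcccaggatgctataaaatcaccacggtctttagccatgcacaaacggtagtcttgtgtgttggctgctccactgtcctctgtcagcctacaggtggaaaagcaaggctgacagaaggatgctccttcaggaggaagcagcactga
Rps27l: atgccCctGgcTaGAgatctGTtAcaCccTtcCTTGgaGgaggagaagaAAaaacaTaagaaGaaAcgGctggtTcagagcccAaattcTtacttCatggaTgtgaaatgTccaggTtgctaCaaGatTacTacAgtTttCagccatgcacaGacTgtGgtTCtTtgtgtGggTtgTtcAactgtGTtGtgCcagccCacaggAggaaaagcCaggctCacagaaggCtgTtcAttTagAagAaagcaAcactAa
The coding sequence of Rps27rt is not printed because it differed from that of Rps27 at 0 of 255 bases. Rps27l differed at 61 of 255 bases (76.1% identity), and its longest stretch in common with Rps27 at the same positions was 11 bases.

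In the data, Rps27 and Rps27rt moved as a single measurement. The ratio of Rps27rt CPM to Rps27 CPM lay between 1.1523 and 1.1525 in the 24 FROZ libraries and between 1.1523 and 1.1537 in the 24 FFPE libraries. No dose or preservation separated them, so they are counted as 2 rows of 1 signal. Rps27l varied separately from both, as the plot of the family shows.

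**Figure D1:**
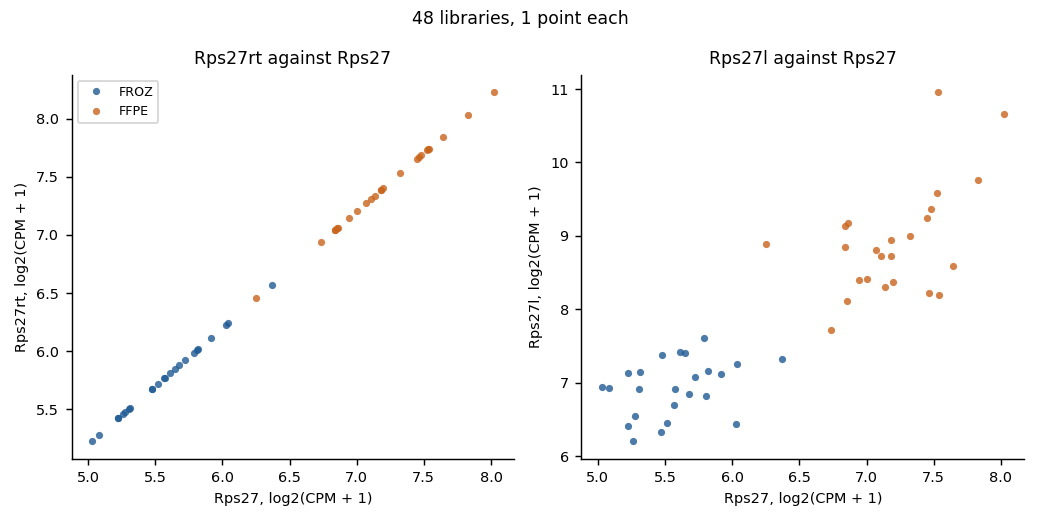
Each point is 1 of 48 libraries, FROZ in blue and FFPE in orange, with Rps27 in log2(CPM + 1) on the x axis and Rps27rt (left) or Rps27l (right) in log2(CPM + 1) on the y axis. Rps27rt falls on a line against Rps27, at a CPM ratio of 1.1523 to 1.1537, whereas Rps27l scatters.

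Windows around annotated start sites are shown for members that later results turn on, because the pyrimidine tract at the start is the sequence feature by which these genes are known. They are RefSeq entries on GRCm38.p6, with 40 bases before and 20 from the start on, on the gene's strand. Capitals mark the pyrimidine run that opens with the first C followed by at least 4 of C or T within 10 bases of the start, on either side. A run that ends before the start, as for Rps27l, is not in the messenger RNA of that annotated start. The other annotated Rps27l start had no such run.
Rps27l: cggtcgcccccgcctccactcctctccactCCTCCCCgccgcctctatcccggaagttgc
Rpl38: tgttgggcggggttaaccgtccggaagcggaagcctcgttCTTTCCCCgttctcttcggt
Rpl35: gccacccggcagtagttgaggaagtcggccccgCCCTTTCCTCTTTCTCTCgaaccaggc
Rplp2: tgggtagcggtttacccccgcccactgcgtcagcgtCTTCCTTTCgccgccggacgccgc
They lie at chr9:66946046-66946105 (plus; the upstream of 2 annotated Rps27l starts), chr11:114668540-114668599 (plus), chr2:39005112-39005171 (minus) and chr7:141447611-141447670 (plus). A RefSeq entry was present for 49 members. Such a run, before or after the start, was present in 25 of the 49 (51%), against 34.4% of 27025 genes with an entry. The letters CTTTCC, searched on the gene's strand within 20 bases of the start and able to overlap that run, were present in 10 of 49 (20.4%) against 2.3% of all genes. CCGGAA, searched on both strands from 100 bases before the start to 50 after it, was present in 19 of 49 (38.8%) against 11.8%. These shares describe annotated sequence only.

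Low CPM values fell on steps from which the CPM of 1 read was read off: FROZ libraries held about 6687263 to 9844070 reads on listed genes and FFPE libraries 1831878 to 6011892, the lowest being animal 49. The members took 1.12% to 1.35% of CPM in FROZ and 1.67% to 2.76% in FFPE. In FROZ at most 1 member was at 0 in a library, and in FFPE up to 5 were. A value of 0 allows up to 3 reads, which covers counting error only. All 10 hepatocyte markers were listed in FROZ, with a summed level of 32270 to 36580 CPM in controls. Macrophage markers moved with dose: 5 of 8 fell at 427 mg/kg-d, and their summed level was 204.3 to 267.5 CPM in controls and 121.6 to 191 CPM at 427 mg/kg-d. Of 8 erythroid markers 3 fell, Hba-a1, Hba-a2 and Alas2, and 1 rose, Tfrc, which hepatocytes also express; their summed level was 188.9 to 314.2 CPM in controls and 322.3 to 516.4 CPM at 427 mg/kg-d. The summed hepatocyte level was 26720 to 30490 CPM at 427 mg/kg-d, below all controls, with 1 marker called as higher and 2 as lower, and 0 and 6 after the rescaling of libraries described below. Of 8 endothelial markers 2 fell at 313 and 1 at 427 mg/kg-d (4 at each dose after rescaling), with a summed level of 214.7 to 240.4 CPM in controls and 180.1 to 222.6 CPM at 427 mg/kg-d. Of 7 stellate cell markers 2 fell at 427 mg/kg-d, where the sum was 202.2 to 365.6 CPM against 234.9 to 521.3 CPM in controls. Neutrophil markers (4 listed) summed to 46.02 to 2319 CPM in controls and up to 2000 CPM at 313 mg/kg-d, so single libraries stood apart. In bulk tissue, fewer cells of a type and less RNA per cell cannot be told apart, and the part of these markers in the results below was not tested.

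The summed share of the members changed little with dose in FROZ. It was 1.12%, 1.23% and 1.34% (lowest, median, highest of 6) in controls, 1.16%, 1.30% and 1.34% at 198, 1.21%, 1.28% and 1.32% at 313, and 1.24%, 1.29% and 1.35% at 427 mg/kg-d. All groups overlapped. In FFPE the medians were 2.39% in controls, 2.19% at 198, 1.94% at 313 and 2.15% at 427 mg/kg-d, again with overlapping ranges. No test was made on this sum, in which high rows weigh most.

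**Figure D2:**
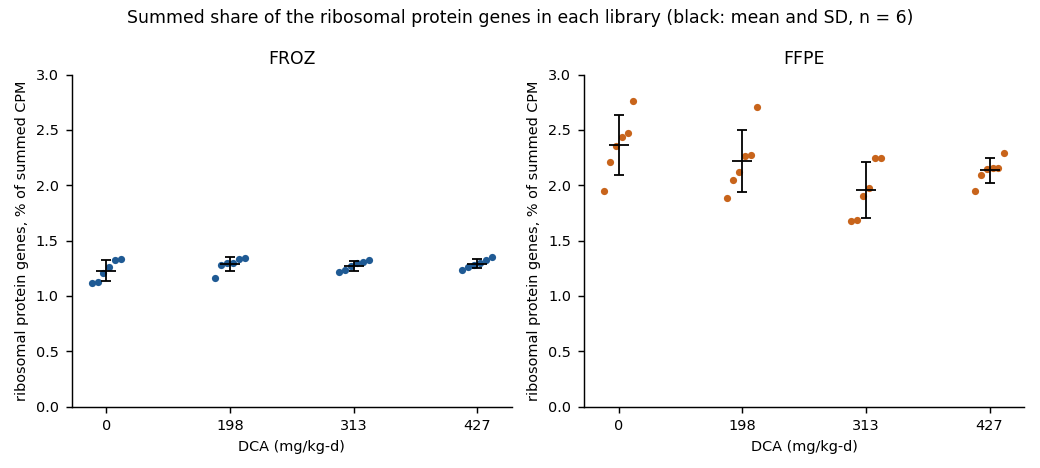
Each point is 1 library, with the members' summed share of CPM in percent on the y axis (from 0) and the DCA dose on the x axis, FROZ left and FFPE right; black marks give mean and SD of 6. FROZ libraries lie between 1.12% and 1.35% and FFPE libraries between 1.67% and 2.76%, and dose groups overlap within each preservation.

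To ask which members responded to DCA in frozen liver, each dose was compared with controls by limma across all 11275 rows, with a Benjamini-Hochberg FDR under 0.05 as passing. At 198 mg/kg-d 1 of 71 members rose and 0 fell, where 1.56% of all genes passed. At 313 mg/kg-d 20 rose and 1 fell (29.6% of members), where 26.7% of all genes passed and 20.5% passed as an increase. At 427 mg/kg-d 14 rose and 1 fell (21.1%), where 30.1% of all genes passed and 22.7% passed as an increase. Over all rows, the members' share was thus above that of all genes at 313 mg/kg-d (below it after the rescaling given next). It was below that share at 427 mg/kg-d, and the difference in shares was not tested. Among rows with a mean of at least 10 CPM, the members' share was the lower at both doses. There 32.7% of 55 members passed at 313 mg/kg-d against 36.8% of 5875 genes, and 23.6% against 42.4% at 427 mg/kg-d. No member passed with more than a 2-fold change. At 427 mg/kg-d 395 of all 11275 genes did, a small share, so a count of 0 among 71 members cannot be called particular to them.

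The scale matters for the direction of these counts. Deposited values put the median of all genes at 0.07, 0.11 and 0.10 log2 units above controls at 198, 313 and 427 mg/kg-d, and that of the members at 0.09, 0.15 and 0.08. With libraries rescaled by their median ratio, which brings the median of all genes to about 0, the member counts became 1 up and 0 down, 10 up and 4 down, and 7 up and 4 down. The member medians then were -0.00, 0.02 and -0.05. On that scale 19.7% of members and 21.1% of all genes passed at 313 mg/kg-d, and 15.5% and 25.3% at 427 mg/kg-d. Among all genes the split at 427 mg/kg-d moved from 2565 up and 826 down to 1423 up and 1424 down. Named changes below are therefore given on both scales where they differ in outcome, and so are calls lost when 1 of the 12 animals compared is left out.

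Rps27l, the paralog of Rps27 and a known p53 target, had the largest rise among members in FROZ. Its level was 6.21, 6.43 and 6.55 in controls (lowest, median, highest), 6.70, 6.88 and 6.94 at 198, 6.92, 7.12 and 7.42 at 313, and 7.15, 7.32 and 7.61 at 427 mg/kg-d. Every treated animal lay above every control at each dose. The log2 fold changes were 0.46 ± 0.09 (SE, n = 6 per group; FDR = 0.0079, limma), 0.77 ± 0.09 (FDR = 3.7e-07) and 0.93 ± 0.09 (FDR = 6e-09), the last being 1.90-fold. It was the 1 member that passed at 198 mg/kg-d, and it passed at the 3 doses under median-ratio scaling too, at 0.37, 0.63 and 0.78.

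Rps27, which differs from Rps27l at 61 coding bases, did not pass at any dose. Its FROZ level was 5.22, 5.38 and 6.03 in controls and 5.31, 5.72 and 6.04 at 427 mg/kg-d, with overlapping groups. The fold change was 0.22 ± 0.17 (FDR = 0.38), with a 95% interval of -0.14 to 0.57 that lay below the interval of 0.75 to 1.11 for Rps27l.

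**Figure D3:**
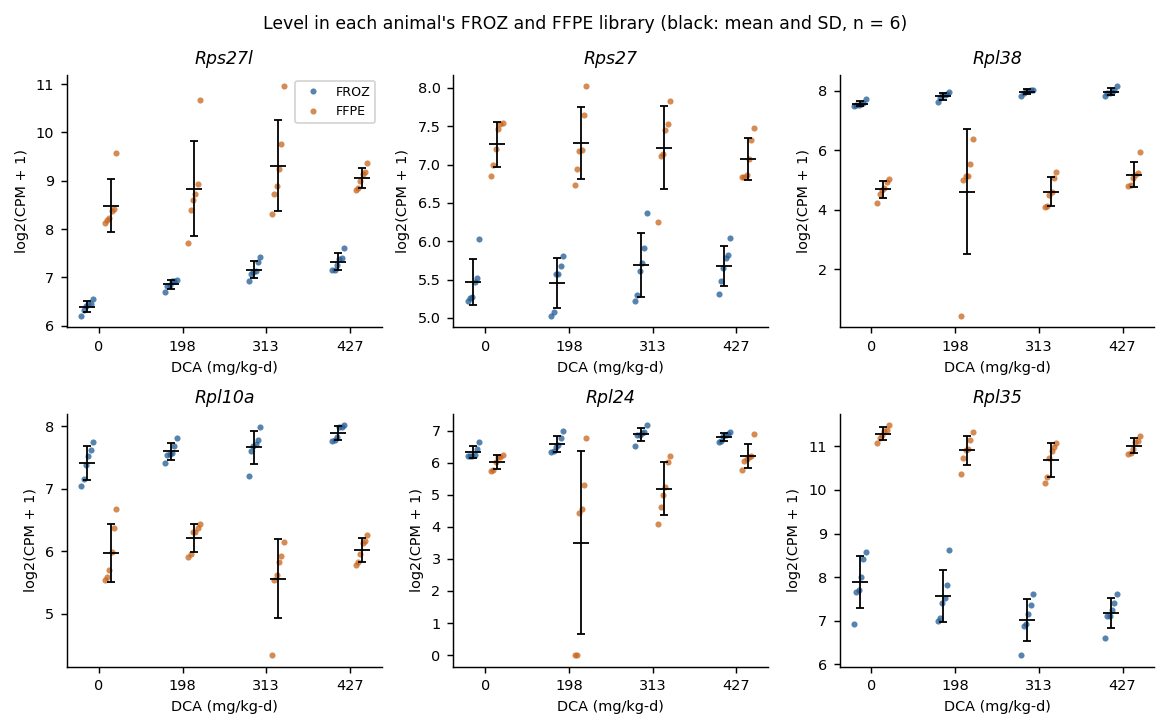
Each panel shows 1 gene, with DCA dose on the x axis and log2(CPM + 1) on the y axis (ranges differ between panels); points are animals, FROZ blue and FFPE orange, and black marks give mean and SD of 6. Rps27l in FROZ climbs from a mean of 6.40 in controls to 7.33 at 427 mg/kg-d, Rps27 overlaps throughout, and FFPE points spread wider than FROZ points in most groups.

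Among large-subunit proteins, 8 of 34 rose (23.5%) and 1 fell at 427 mg/kg-d, where 22.7% of all genes rose. Rpl38, a small protein of the large subunit known for its role in translating a subset of patterning messenger RNAs, was 7.50, 7.55 and 7.73 in controls, 7.83, 8.00 and 8.03 at 313, and 7.81, 7.94 and 8.16 at 427 mg/kg-d. Both treated groups lay above all controls. It rose by 0.40 ± 0.07 at 427 mg/kg-d (FDR = 6.4e-05) and by 0.40 ± 0.07 at 313 mg/kg-d (FDR = 0.0001), and by 0.25 at 427 mg/kg-d after rescaling (FDR = 0.0069).

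Rpl10a, the protein of the L1 stalk beside the exit site for transfer RNA, was 7.05, 7.46 and 7.75 in controls and 7.77, 7.90 and 8.02 at 427 mg/kg-d. The groups did not overlap, and the rise was 0.48 ± 0.11 (FDR = 0.002). Rpl24, which bridges the subunits, was 6.20, 6.23 and 6.65 in controls and 6.64, 6.84 and 6.97 at 427 mg/kg-d. Here 5 of 6 treated animals exceeded all controls, with a rise of 0.49 ± 0.11 (FDR = 0.0014). Rpl10a and Rpl24 also passed after rescaling, at 0.34 each. Rpl19 was 2.35, 2.81 and 3.29 in controls and 2.95, 3.24 and 3.83 at 427 mg/kg-d, with 3 of 6 treated animals above all controls. Its rise of 0.47 ± 0.16 (FDR = 0.025) did not pass after rescaling (0.34, FDR = 0.11), without control animal 8 or without treated animal 102 (0.38 and 0.36).

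Rpl22, Rpl5 and Rpl11 have roles outside the ribosome, Rpl5 and Rpl11 as inhibitors of the p53 ubiquitin ligase MDM2. Rpl22 was 8.00, 8.20 and 8.43 in controls and 8.23, 8.50 and 8.57 at 427 mg/kg-d, an overlapping rise of 0.28 ± 0.10 (FDR = 0.035) that did not pass after rescaling (0.13, FDR = 0.35) or in 7 of the 12 fits leaving out 1 animal, 4, 7 or 8 of the controls and 98, 100, 101 or 102 of the treated animals. In those fits it was 0.24 to 0.28. Rpl11 rose by 0.45 ± 0.16 at 313 mg/kg-d (FDR = 0.04; 0.31 and FDR = 0.18 after rescaling), a call lost without animal 4, 7, 8, 73, 74, 75 or 78 (0.30 to 0.47). It differed by 0.21 ± 0.16 at 427 mg/kg-d (FDR = 0.36). Rpl5 did not pass: it was 7.81, 7.93 and 8.13 in controls and 7.80, 7.92 and 8.13 at 427 mg/kg-d, a difference of -0.03 ± 0.09 (FDR = 0.85).

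Rpl35, at the polypeptide exit of the large subunit, was the 1 member that fell. It was 6.91, 7.86 and 8.57 in controls, 7.00, 7.45 and 8.62 at 198, 6.21, 7.03 and 7.60 at 313, and 6.59, 7.18 and 7.60 at 427 mg/kg-d. Control libraries were widely spread and the groups overlapped, with 2 of 6 animals at 313 and 1 of 6 at 427 mg/kg-d below all controls. It fell by 0.86 ± 0.26 at 313 mg/kg-d (FDR = 0.016) and by 0.70 ± 0.26 at 427 mg/kg-d (FDR = 0.043). The former did not pass without animal 74 (-0.70, FDR = 0.053). The latter did not pass in 7 of 12 fits that left out 1 animal, 3, 4 or 6 of the controls and 98, 99, 101 or 102 of the treated animals, where it was -0.56 to -0.72. After rescaling it was -0.85 (FDR = 0.017), and 3 other members then passed as lower at 427 mg/kg-d, Rpl13a (-0.31), Rpl12 (-0.26) and Rps9 (-0.24). At 313 mg/kg-d Rpl36al (-0.32) and Rps9 (-0.27) were among the members that passed as lower after rescaling.

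Other large-subunit members also passed, of which some are named here. At 427 mg/kg-d Rpl39, beside Rpl35 near the exit tunnel, was 5.29, 5.35 and 5.82 in controls and 5.37, 5.80 and 6.04 in treated animals, an overlapping rise of 0.34 ± 0.12 (FDR = 0.031). Rpl27 rose by 0.45 ± 0.09 at 313 mg/kg-d (FDR = 0.00032) and by 0.23 ± 0.09 at 427 mg/kg-d (FDR = 0.049). Neither passed at 427 mg/kg-d after rescaling, at 0.20 and 0.08. Leaving out 1 animal ended the call of Rpl39 at 427 mg/kg-d in 8 of 12 fits (3, 4, 7, 8, 98, 100, 101 or 102; 0.28 to 0.33) and that of Rpl27 in 10 of 12 (each animal but control 6 and treated 101; 0.19 to 0.23). Rpl32 rose by 0.54 ± 0.16 at 313 mg/kg-d alone, and by 0.45 there after rescaling (FDR = 0.035). Rpl15 and Rpl23 also passed at 313 mg/kg-d alone, at 0.34 ± 0.11 and 0.24 ± 0.08, and neither passed after rescaling (0.20, FDR = 0.14, and 0.10, FDR = 0.37). The call of Rpl15 was lost without animal 8 or 74 (0.27 and 0.29), and that of Rpl23 without animal 3, 7, 8, 74 or 75 (0.20 to 0.22).

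In the small subunit, 3 of 21 members (14.3%) rose at 427 mg/kg-d and 5 (23.8%) at 313 mg/kg-d, and 0 fell. Of all genes 22.7% and 20.5% rose at these doses. Rps27a, made as a fusion with ubiquitin, rose by 0.63 ± 0.13 at 313 mg/kg-d (FDR = 0.00058) and by 0.37 ± 0.13 at 427 mg/kg-d (FDR = 0.028; 0.24 and FDR = 0.16 after rescaling). The latter call was lost without animal 8, 99 or 100 (0.30 to 0.35). All 6 animals at 313 mg/kg-d lay above all controls, at 3.10 to 3.50 against 2.35 to 2.87. Rps2, at the messenger RNA entry channel, was 3.47, 3.78 and 4.35 in controls and 4.09, 4.38 and 4.64 at 313 mg/kg-d, a rise of 0.57 ± 0.14 (FDR = 0.0037). At 427 mg/kg-d Rps2 was 3.68, 4.14 and 4.29, inside the control range, with a difference of 0.25 ± 0.14 (FDR = 0.19). Rps28 rose at both doses, by 0.32 ± 0.11 and 0.31 ± 0.11 (FDR = 0.035 and 0.032), and at neither after rescaling (0.18 and 0.17, FDR = 0.25 each). Its call was lost at 313 mg/kg-d without animal 3, 4, 7, 8, 73, 74 or 75 (0.23 to 0.32) and at 427 mg/kg-d without animal 4, 7, 8, 99 or 102 (0.26 to 0.31). Rps13 rose at 313 mg/kg-d alone, by 0.29 ± 0.10 (FDR = 0.027), but not after rescaling (0.16, FDR = 0.26) or without animal 3, 73 or 76 (0.26 to 0.27).

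The stalk did not pass at 427 mg/kg-d. Rplp0 was 7.55, 8.00 and 8.24 in controls and 7.56, 7.89 and 8.25 at 427 mg/kg-d (-0.07 ± 0.12, FDR = 0.72). Rplp1 differed by 0.26 ± 0.17 (FDR = 0.25) and Rplp2 by 0.14 ± 0.13 (FDR = 0.45). Rplp2 alone of the 3 passed at 313 mg/kg-d, rising by 0.40 ± 0.13 (FDR = 0.026; 0.26 and FDR = 0.14 after rescaling), a call lost without animal 4, 7, 8 or 74 (0.32 to 0.38).

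Of the pseudogene and retrogene symbols, 1 of 8 (12.5%) rose at 427 mg/kg-d, where 22.7% of all genes rose. It was Rpl37rt, at 0.38 ± 0.12 (FDR = 0.019), and at 0.24 after rescaling (FDR = 0.13). Rpl37rt did not pass without control animal 4 or 8 (0.33 each). The 6 pseudogene symbols differed by -0.02 to 0.17 and did not pass. Rps6-ps4, whose windows all occur in Rps6, was at 8.32 ± 0.11 (mean ± SD, n = 6) in controls and 8.49 ± 0.11 at 427 mg/kg-d (0.17 ± 0.08, FDR = 0.13). Rps19-ps3 was 8.68 ± 0.16 and 8.66 ± 0.17 (-0.02 ± 0.09, FDR = 0.89). Rpl14-ps1, Rpl31-ps12, Rpl34-ps1 and Rps15a-ps4 differed by 0.13, 0.01, -0.02 and 0.05. Rps19bp1, the member that is not a ribosomal protein, was 5.03, 5.19 and 5.42 in controls and 5.53, 5.75 and 5.89 at 427 mg/kg-d, without overlap, and rose by 0.50 ± 0.10 (FDR = 0.00028).

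Rpl36al, the paralog of Rpl36a, was 10.59, 10.95 and 11.13 in FROZ controls and 10.79, 10.96 and 11.15 at 427 mg/kg-d (0.02 ± 0.10, FDR = 0.9). At 313 mg/kg-d Rpl36al passed as lower after rescaling (-0.32, FDR = 0.038, limma) but not on deposited values. The members found only in the FROZ table were low. Rpl3 was at 1.10 ± 0.32 in controls and 0.99 ± 0.30 at 427 mg/kg-d, Rpl7a at 0.36 ± 0.32 and 0.42 ± 0.24, and Rpl7l1 at a median of 2.55 and 2.72. Rpl3l, a paralog known from muscle, was 0.16, 0.34 and 5.44 in controls and at most 0.62 in the treated groups. The value of 5.44 belonged to 1 control animal. Its difference at 427 mg/kg-d was -0.96 ± 0.53 (FDR = 0.18), and none of the 4 passed at any dose.

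Across doses, 13 members rose at both 313 and 427 mg/kg-d and Rpl35 fell at both, 7 passed at 313 mg/kg-d alone and 1, Rpl10a, at 427 mg/kg-d alone. These comparisons share their 6 controls. Of all genes 26.7% passed at 313 and 30.1% at 427 mg/kg-d, and the share that passed at both was not computed. At 427 mg/kg-d 7 members (9.86%) had no overlap between the 6 treated and 6 control animals, where 14.7% of all genes had none. Rps27l, Rpl10a, Rpl38 and Rps19bp1 were among them.

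**Figure D4:**
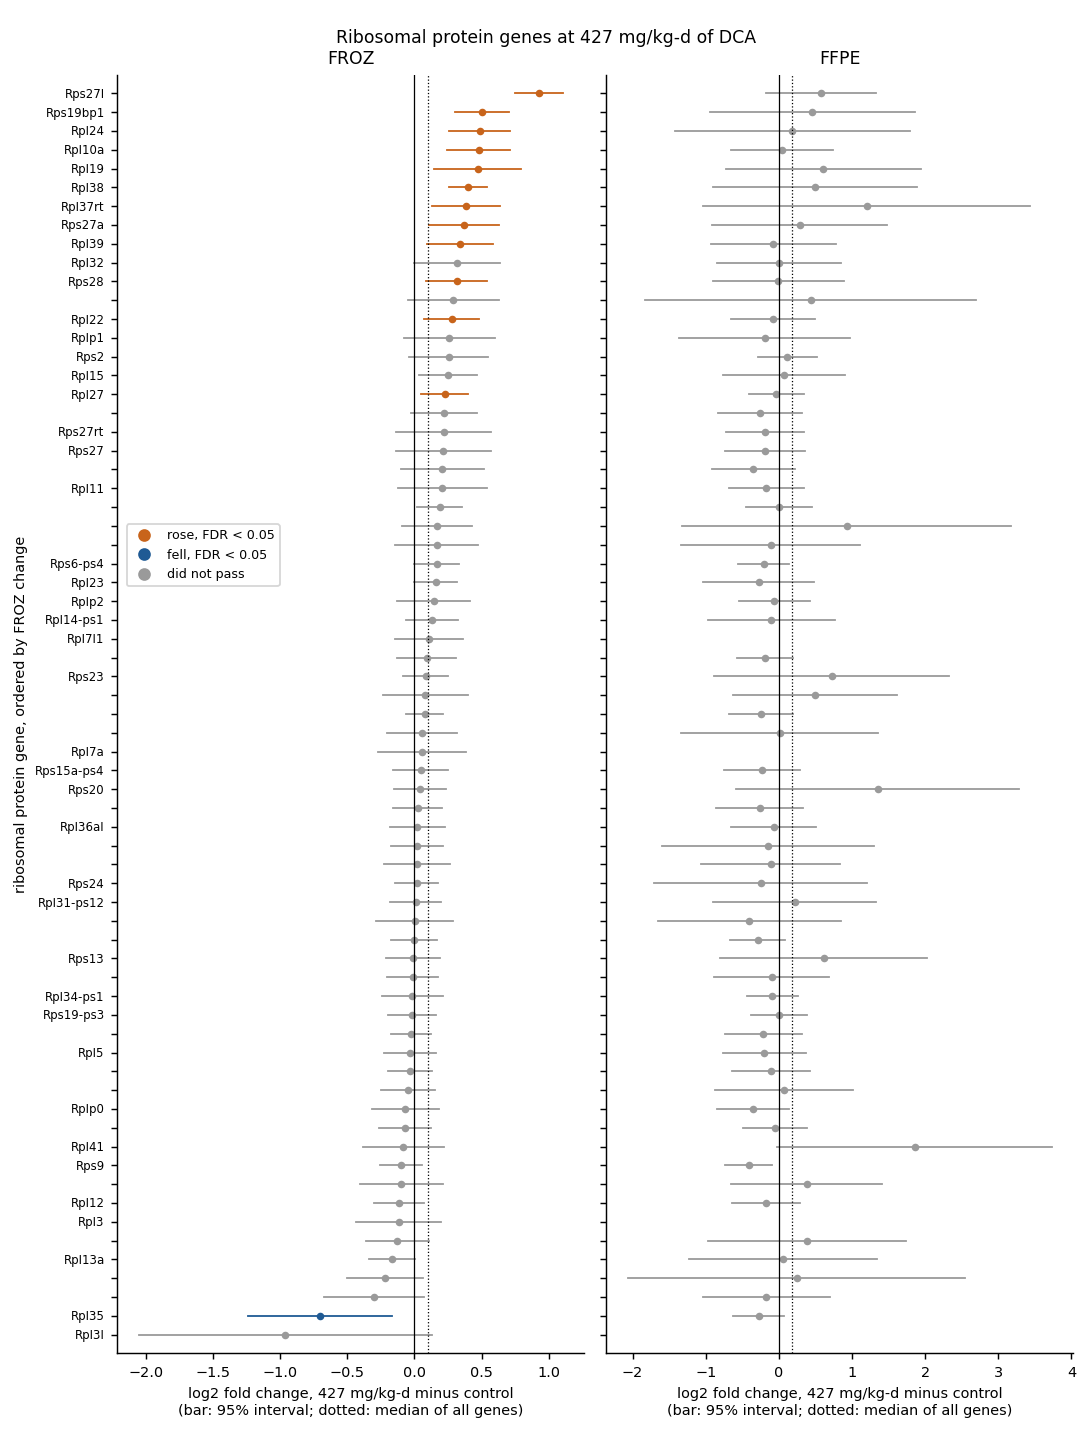
Points give the log2 fold change at 427 mg/kg-d against control with 95% intervals (x axis) for 67 of the 71 FROZ members (y axis, ordered by the FROZ change, names given for those in the text), FROZ left and, for the 63 of these listed there, FFPE right, with different x ranges; the dotted line is the median of all genes. In FROZ, 12 of these rose (orange) and Rpl35 fell (blue); in FFPE no member passed and intervals are wider, a median of 1.67 log2 units against 0.43.

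Other genes of translation were examined as lists. Of translation initiation factors in FROZ, 24 of 38 listed (63.2%) rose at 313 and 16 (42.1%) at 427 mg/kg-d, and 0 fell, where 20.5% and 22.7% of all genes rose. Their medians were 0.36 and 0.26. The medians of all genes were 0.11 and 0.10. Eif1, which guards start-codon choice, rose by 0.82 ± 0.09 (FDR = 2e-07), and Eif6, which keeps the subunits apart until the large subunit matures, rose by 0.71 ± 0.08 (FDR = 2.7e-07). After rescaling, 14 (36.8%) rose at 313, and 6 (15.8%) rose and 1 fell at 427 mg/kg-d, where 10.3% and 12.6% of all genes rose on that scale. Ribosome biogenesis factors rose in 4, 31 and 39 of 97 at 198, 313 and 427 mg/kg-d and 0 fell. Among them Nop58, a core protein of box C/D snoRNPs that guide methylation of ribosomal RNA, rose by 0.77 ± 0.13 (FDR = 5.2e-05). After rescaling 15 (15.5%) rose and 2 fell at 427 mg/kg-d.

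Elongation and termination factors rose in 4 of 14 (28.6%) at 427 mg/kg-d and 1 fell, where 22.7% of all genes rose. After rescaling 2 (14.3%) rose and 1 fell, where 12.6% of all genes rose. On deposited values Hbs1l, a ribosome rescue factor, rose by 0.96 ± 0.10 (FDR = 1.9e-08). The 1 that fell was Eef2k, the kinase that inhibits elongation factor 2, by 0.54 ± 0.14 (FDR = 0.0035). Growth signalling genes rose in 5 (20%) and fell in 3 of 25 at 427 mg/kg-d, where 22.7% of all genes rose. Their median was 0.07, where that of all genes was 0.10. After rescaling 3 (12%) rose and 5 fell, where 12.6% of all genes rose. The list as a whole thus did not rise more often than all genes. On deposited values Myc rose by 1.44 ± 0.37 (FDR = 0.0039) and Mtor by 0.69 ± 0.16 (FDR = 0.0011). Ddit4, an inhibitor of mTOR complex 1, fell by 0.99 ± 0.16 (FDR = 2.8e-05). Myc, Mtor and Ddit4 were picked after their values were seen. They do not stand for the 5 that rose and 3 that fell, and mTOR activity was not tested. Of 4 listed ribosomal proteins with other symbols, 2 rose at 427 mg/kg-d, Fau (0.42 ± 0.10, FDR = 0.0015) among them, and 1 passed after rescaling.

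In FFPE, limma on 6673 rows called 0 of 67 members at 198, 313 and 427 mg/kg-d, where 0.0599%, 1.08% and 2.41% of all genes passed. At an unadjusted p under 0.05 there were 6, 11 and 1 members (8.96%, 16.4% and 1.49%), against 11.8%, 11.7% and 8.71% of all genes. Member medians were -0.08, -0.32 and -0.05, where those of all genes were -0.19, -0.12 and 0.18. At 427 mg/kg-d 0 of 30 listed initiation factors and 0 of 60 biogenesis factors passed. Nor did any of 12 elongation and termination factors or 19 growth signalling genes. The median SD within a dose group was 0.58 log2 units over members in FFPE and 0.19 in FROZ. The SD was larger in FFPE for 66 of the 67 members, a count not made for all genes. Among rows with a mean of at least 10 CPM (Rps27rt left out), the median SD in FFPE was 0.54 for members and 1.34 for all genes. In FROZ it was 0.16 and 0.195.

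Rps27l in FFPE was 8.12, 8.30 and 9.58 in controls, 7.71, 8.66 and 10.67 at 198, 8.31, 9.07 and 10.96 at 313, and 8.81, 9.07 and 9.36 at 427 mg/kg-d. The high-dose animals exceeded 5 of the 6 controls and lay below the highest control. The differences were 0.36 ± 0.37, 0.83 ± 0.37 and 0.57 ± 0.37 (FDR = 0.73, 0.36 and 0.83), and the 95% interval at 427 mg/kg-d, -0.18 to 1.32, includes both 0 and the FROZ value. Rpl35 was 11.07, 11.31 and 11.48 in FFPE controls and 10.15, 10.81 and 11.09 at 313 mg/kg-d, with 5 of 6 animals below all controls, a difference of -0.60 ± 0.17 (FDR = 0.089). Rps9 was the 1 member (of 67) without overlap in FFPE at 427 mg/kg-d, where 4.48% of all genes had none, at 10.95, 11.10 and 11.32 in controls and 10.46, 10.72 and 10.86 in treated animals (-0.41, FDR = 0.29).

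Several FFPE members were at 0 in single libraries. Rps20 was at 0 in 6 of 24 FFPE libraries, while its lowest FROZ value was 5.58. Rpl24 in FFPE at 198 mg/kg-d was 0, 4.49 and 6.78, and 2 of the 6 libraries were at 0, animal 49, with the fewest reads, and animal 53. These libraries held 1580 and 960 of the 6673 genes at 0. The part of library depth in the FFPE spread was not tested.

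Whether FROZ and FFPE responses differed was tested on the FFPE minus FROZ difference within each animal, dose group against controls. Of 67 members 0 passed at 198, 313 and 427 mg/kg-d (limma; lowest FDR = 0.30, 0.47 and 1), where 0.0303%, 0% and 0.0303% of 6591 shared genes passed. At an unadjusted p under 0.05 there were 5, 12 and 1 members (7.46%, 17.9% and 1.49%), against 11.4%, 7.39% and 2.22% of shared genes. For Rps27l at 427 mg/kg-d the response in FFPE minus that in FROZ was -0.36, with a 95% interval from -1.21 to 0.49. Of the 15 members called in FROZ at 427 mg/kg-d, the FFPE interval held the FROZ value for 14, the exception being Rpl35, and held 0 for all 15. Of the 21 called at 313 mg/kg-d, it held the FROZ value for 18 and 0 for 17. The FFPE interval left out 0 on the FROZ side for Rps27l (0.08 to 1.58), Rps2 (0.09 to 0.90) and Rpl35 (-0.95 to -0.25). For Rpl11 it lay below 0 (-1.10 to -0.07), opposite to FROZ, and for Rpl22 and Rpl39 it held 0 but not the FROZ rise. These intervals are not adjusted for the number of genes.

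The level itself differed between preservations for most members, as for most genes. Over all 24 animals 31 of 67 members were higher in FFPE and 24 lower (82.1% passed), where 75.3% of shared genes passed and 41.6% passed as higher in FFPE. The median was 0.26 for members and 0.17 for all shared genes, and 61.2% of members against 55.8% of genes differed by more than 1 log2 unit. Scaling both tables by median ratios over 48 libraries turned the split to 26 higher and 33 lower. By class, 6 of 21 small-subunit members were higher and 11 lower (median -1.04), and 16 of 32 large-subunit members were higher and 9 lower (median 0.37). The difference between classes was not tested.

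Rps2 had the largest difference among members. It ranged from 3.47 to 4.35 in FROZ controls and from 8.55 to 9.47 in FFPE controls, and was higher in FFPE in 24 of 24 animals, by 5.17 ± 0.08 (SE; FDR = 4.2e-23). Rpl35 was higher by 3.56 ± 0.13 and Rplp0 by 2.10 ± 0.10, each in 24 of 24 animals. Rps27l was higher by 1.99 ± 0.15 and Rps27 by 1.64 ± 0.11, also in 24 of 24. Rpl27 was higher by 1.93 ± 0.09. Rpl41, the smallest ribosomal protein, was near 0 in FROZ (0.17, 0.56 and 0.71 in controls) and 0, 3.01 and 4.31 in FFPE controls, a difference of 3.45 ± 0.31 with FFPE higher in 21 of 24 animals.

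Rps20 lay lower in FFPE in 24 of 24 animals, with a difference of -3.32 ± 0.33 on this log2(CPM + 1) scale (FDR = 4.8e-09). It was 5.63, 5.74 and 6.05 in FROZ controls and 0, 2.82 and 4.22 in FFPE controls. The FFPE minus FROZ difference was -3.06 ± 0.23 for Rpl38, -2.76 ± 0.14 for Rpl36al, -2.63 ± 0.30 for Rps23 and -1.97 ± 0.28 for Rps24, each lower in FFPE in 24 of 24 animals. Rpl38 was at 4.24, 4.70 and 5.04 in FFPE controls. Of the 67 members, 22 were higher in FFPE in every animal and 12 lower in every animal. The share of all shared genes with 1 direction in every animal was not computed. Of those genes 75.3% passed and 55.8% differed by more than 1 log2 unit, so these counts cannot be called particular to the members.

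**Figure D5:**
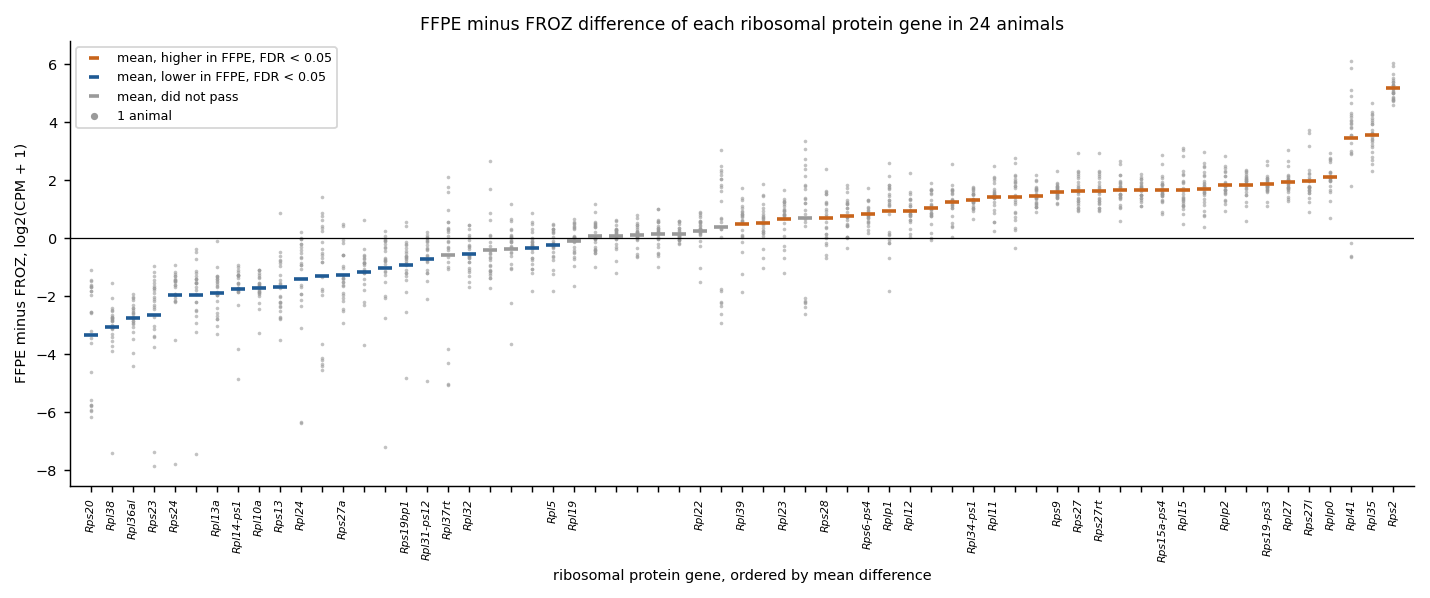
For 63 of the 67 shared members (x axis, ordered by the mean, names given for those in the text) grey points give the FFPE minus FROZ difference in log2(CPM + 1) of the 24 animals (y axis) and the bar gives their mean over dose groups, orange where higher and blue where lower at FDR under 0.05. Means run from -3.32 for Rps20 to 5.17 for Rps2, and the points of Rps20 spread down to animals with FFPE at 0.

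Correlation between members within dose groups was weak. In FROZ, after each gene was centred on its dose group mean, and with Rps27rt left out, the median Pearson r over pairs of 54 members with at least 10 CPM was 0.202, and 70.8% of pairs were above 0. Over pairs of 5875 genes the median r was 0.0232 and 52.9% were above 0. In FFPE the medians were 0.0887 for 55 members and 0.0140 for 6327 genes. These are descriptions over 24 libraries whose values share depth and scaling. The mean deviation of the members in FROZ had r = -0.368 with log2 library reads and r = 0.368 with the same animal's FFPE deviation, over 24 animals.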

How the data were processed

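TempO-Seq was measured in 48 mouse liver libraries. The authors aligned reads with STAR (2.6 per the labels) to mm10, counted transcripts in Partek Flow, removed genes of low geometric mean, scaled to CPM and deposited log2 of CPM + 1 for FROZ and FFPE separately. Probes of abundant genes, Rpl38, Rpl24, Rps20 and Rplp0 among them, were attenuated equally in every library, so their levels sit below their abundance. CPM in each table is relative to its own listed genes, so a shift of abundant genes moves all others. Dose groups were compared in limma 3.58.1 (R 4.3.3) with an intensity trend, all 4 dose groups in the fit, and FDR over all rows. Preservation was tested on within-animal differences (FFPE less FROZ), pairing libraries by the animal number in the labels. Over 4815 genes, deviations from the dose mean had a median r of 0.128 within an animal and -0.0232 between animals of a dose, and 21 of 24 animals matched best with themselves. Levels set across the tables rest on separate normalization. Libraries are 6 separate animals per dose.

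CPM of 1 read was the lowest repeated CPM step (0.102 to 0.150 in FROZ, 0.166 to 0.546 in FFPE). Values at up to about 10 steps were within 0.05 reads of a whole number for 95.9% to 97.2% in FROZ and 69.9% to 95.1% in FFPE, so no count model was used. Some members and list genes are not reported here by name, though the counts hold them. Scripts were tested on simulated data. The members and lists were chosen with earlier results of these data known. Members were named where FDR was under 0.05: the 8 largest increases and decreases at 427 mg/kg-d, 3 at the lower doses, 6 in each direction between preservations, and always the stalk, Rps6, Rpl5, Rpl11, Rps19, Rpl22, paralogs, pseudogene symbols and members of 1 table only. Other named members (Rpl37rt, Rps9, Rpl12, Rpl13a, Rpl39, Rps28, Rpl15, Rpl23, Rpl32 and Rps13) and the named genes of other lists were chosen after their values were seen. Alternatives changed the offset, scaling, filter, weights, samples, variance prior, covariate, threshold and pairing.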

Additional observations from a re-analysis of the deposited data

Results flagged for a closer look

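Within groups of 6 animals, a value was picked out where its gap to the nearest other animal was above the Dixon 95% critical share of the group's range. The 108 groups were the summed share and 13 members in each table and dose, with Rpl3l in FROZ alone. In them 12 values were picked out, and chance gives about 1 in 20 groups. In FROZ controls, animal 6 was the highest for Rpl38 (7.73, others 7.50 to 7.58), Rps20 (6.05, others 5.63 to 5.76) and Rps27 (6.03, others 5.22 to 5.52). Animal 5 had Rpl3l at 5.44, others 0.16 to 1.54. At 198 mg/kg-d in FROZ, animal 53 had the lowest summed share of the members (1.16%, others 1.28% to 1.34%).

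In FFPE controls, animal 3 had Rps27l at 9.58 (others 8.12 to 8.42) and animal 4 had Rpl19 at 3.94 (others 2.37 to 2.91). At 198 mg/kg-d, animal 52 had Rpl38 at 0.44 (others 5.00 to 6.37) and animal 53 had Rpl41 at 0 (others 4.40 to 6.70). At 313 mg/kg-d, animal 77 had Rpl10a at 4.34 (others 5.54 to 6.14) and animal 74 had Rpl19 at 1.66 (others 2.62 to 3.08). At 427 mg/kg-d, animal 98 had Rpl24 at 6.91 (others 5.79 to 6.20). No response difference between FROZ and FFPE passed the test for a member.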

How the results depend on the processing

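The counts of members called in FROZ at 313 and 427 mg/kg-d (21 and 15) stayed within 1.5 times under each offset, scaling, filter, weighting, variance prior, covariate and choice of groups tried. These counts sum both directions, and the split did change. Under median-ratio scaling the members that rose went from 20 to 10 at 313 and from 14 to 7 at 427 mg/kg-d. Those that fell went from 1 to 4 at each dose. The counts became 9 and 7 at an FDR under 0.01 and 0 and 0 with a fold above 2 required. At 198 mg/kg-d the count of 1 became 3 with a mean of at least 10 CPM, 2 with array quality weights, 2 with the number of genes at 0 as a covariate and 0 with a fold above 2 required. Rpl38 and Rps19bp1 were the members added. In FFPE at 427 mg/kg-d the count of 0 became 2 with array quality weights (Rps27l up, Rps9 down) and 1 with only the 2 groups compared (Rps9).

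Leaving out 1 animal gave 1 to 2 members at 198, 14 to 24 at 313 and 8 to 16 at 427 mg/kg-d in FROZ, 0 to 1, 0 to 1 and 0 to 0 in FFPE, and 53 to 56 between preservations. The count of 2 at 198 mg/kg-d came without animal 49 (adding Rpl38) or 51 (adding Rps19bp1). At 427 mg/kg-d the count was 9 without control animal 4, 8 without control animal 8 and 9 without treated animal 102. In FFPE a member was called without animal 50 (Rpl24 at 198 mg/kg-d) and without animal 74 or 78 (Rpl23a and Rpl35 at 313 mg/kg-d). Without the replicate block, so with libraries unpaired, 55 members again differed between preservations (32 higher, 23 lower in FFPE) and 0 responses differed. The sign changed in 3 differences: Rpl23a (-0.018) and Rpl39 (-0.070) under median-ratio scaling over 48 libraries, and Rpl5 (0.20) in control animals only. The causes were not tested. FFPE libraries held fewer reads and their intervals were wider than in FROZ; the part of depth in the count of FFPE calls was not tested.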
